A study of Mus musculus with 16 samples.

Results

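Acute phase proteins are plasma proteins that the liver makes in changed amounts during inflammation, infection or tissue injury. The genes described here are 10 mouse members of this class, found by symbol among the 78317 genes listed in the deposited tables: the serum amyloid A genes Saa1, Saa2, Saa3 and Saa4, the orosomucoid genes Orm1 and Orm2, lipocalin 2 (Lcn2), haptoglobin (Hp), hemopexin (Hpx) and C-reactive protein (Crp). All 10 passed the filter on low counts that left 14781 genes for testing. The genes were measured by poly(A) RNA sequencing in 16 whole-liver libraries of wild-type C57BL/6J mice, an inbred laboratory strain. Females and males were each kept on a normal chow from LabDiet (fat gives 4.5% of its calories, as labelled) or on a high fat diet, D12492 of Research Diets, in which fat gives 60%, giving 4 groups of 4 libraries. The labels do not say that each library of a group came from a separate animal, so p-values measure the spread between these libraries. Mice arrived at 6 weeks of age and ate the diets for 10 weeks, with food and water freely available and lights on at 07:00. The chow and the high fat diet came from different makers, so the groups can differ in more than fat, and the hour of tissue collection is not given in the sources used here. The study compared the diets in both sexes to ask what the high fat diet did to liver RNA.

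During an acute phase response, macrophages and other cells release IL-1, TNF and IL-6. These act on hepatocytes through their receptors, JAK kinases and the transcription factor STAT3, together with C/EBP and NF-kB factors, and raise transcription of the positive acute phase genes. Plasma proteins such as albumin fall in the same response. In the mouse, serum amyloid A 1 and 2, which travel on high density lipoprotein, are the strongest responders, and C-reactive protein responds weakly.

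The libraries held between 22228115 and 41420589 expected counts each. All carry the same batch label. Values per library are CPM, counts scaled to the library's depth with edgeR's TMM factors, unless TPM, which also divides by transcript length, is named. The 8 hepatocyte markers summed to between 61981 and 125723 CPM in every library, so the labelled tissue was matched by its main cell type. Among pairs of libraries of one group, male high fat diet replicates 2 and 3 stood out as alike: their chi-square statistic per gene was 3.88. No other pair of that group was under 54.5, and in the remaining groups the lowest was 20.6. Sampling noise alone would give about 1, so they were not counted as 1 library, and their average is given below where it changes a result. The statistic measures only how alike the counts are, so it cannot tell whether both came from the same animal. In bulk liver, more RNA per cell and more cells of a type that makes it cannot be told apart.

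The sequences upstream of 5 of the genes are shown first. Saa1 and Saa2 are close copies, Saa4 is a relative with another sequence whose levels separated by sex, and Lcn2 and Orm2 are genes of other families whose levels also ranged widely among males. RefSeq promoters (build GRCm38.p6) were found for 8 of the 10 genes, with no entry used here for Orm1 and Hp. The 250 bases before each start are printed 5′ to 3′ for Saa1 (chr7:46742981-46743230, reverse strand), Saa2 (chr7:46751583-46751832, forward strand), Saa4 (chr7:46732604-46732853, reverse strand), Lcn2 (chr2:32387740-32387989, reverse strand) and Orm2 (chr4:63362199-63362448, forward strand). Capitals mark matches to TTGCNNAA, a form of the motif bound by C/EBP factors, on either strand.
Saa1: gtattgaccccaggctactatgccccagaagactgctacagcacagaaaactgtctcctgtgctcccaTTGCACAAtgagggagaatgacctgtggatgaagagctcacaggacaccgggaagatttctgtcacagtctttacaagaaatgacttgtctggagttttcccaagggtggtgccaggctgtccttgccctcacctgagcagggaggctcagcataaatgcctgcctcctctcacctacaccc
Saa2: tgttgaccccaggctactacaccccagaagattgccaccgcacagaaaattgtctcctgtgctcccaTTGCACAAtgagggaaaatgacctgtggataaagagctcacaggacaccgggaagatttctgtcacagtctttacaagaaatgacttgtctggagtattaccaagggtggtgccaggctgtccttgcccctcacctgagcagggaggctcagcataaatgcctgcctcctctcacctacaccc
Saa4: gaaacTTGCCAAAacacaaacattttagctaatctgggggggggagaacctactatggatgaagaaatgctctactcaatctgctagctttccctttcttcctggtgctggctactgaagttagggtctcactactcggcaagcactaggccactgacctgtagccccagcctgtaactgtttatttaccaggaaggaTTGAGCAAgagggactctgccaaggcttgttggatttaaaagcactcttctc
Lcn2: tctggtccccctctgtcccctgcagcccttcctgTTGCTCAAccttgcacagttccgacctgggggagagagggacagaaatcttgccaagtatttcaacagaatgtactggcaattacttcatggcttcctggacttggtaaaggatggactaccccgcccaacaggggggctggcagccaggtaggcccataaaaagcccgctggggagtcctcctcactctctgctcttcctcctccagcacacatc
Orm2: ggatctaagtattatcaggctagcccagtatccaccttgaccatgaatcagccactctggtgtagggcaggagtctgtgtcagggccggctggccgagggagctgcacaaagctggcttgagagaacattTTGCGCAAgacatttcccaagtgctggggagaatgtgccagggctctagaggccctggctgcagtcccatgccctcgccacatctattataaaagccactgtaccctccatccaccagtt
The windows of Saa1 and Saa2, which lie on opposite strands, were 94.8% identical, with 238 matching bases, 11 mismatches and 2 gap positions. Their matches to the C/EBP motif began 182 and 183 bases before the start. The window of Saa1 was 48.5% identical to that of Saa3 and 46.3% identical to that of Saa4. Of the 8 genes with a promoter entry, 7 held TTGCNNAA, Crp being the exception, and 9.6% of 32851 promoters of the same length held it. TTCNNNGAA (STAT3, held by 7.0% of promoters), CTGGGAA (an IL-6 response element, 9.1%) and GGGANTTCC (NF-kB, 1.4%) had no match in the 8 windows, so no 2 motifs overlapped. A match is a description of letters and says nothing of binding, and the motifs were chosen with results of these data known.

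The Saa1 and Saa2 transcripts of GENCODE M21 were 93.9% identical, those of Orm1 and Orm2 91.0%, and those of Orm2 and Orm3 88.0%. RSEM, which the submitters' processing notes name, shares reads that match several genes between them, so the split between such copies is uncertain, and sums over the copies are given with the tests. In that annotation no exon of the 10 genes overlapped another gene.

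Levels are compared between genes in TPM. In females on the normal diet the order was steady: Hpx 2305 ± 163 TPM (SD, n = 4), Hp 1865 ± 164 TPM and Orm1 1569 ± 132 TPM led, and each was above the next in all 4 libraries without overlap. Crp followed with 366 ± 21.4 TPM. Saa4 (140 ± 22.2 TPM), Saa1 (89.3 ± 22.5 TPM), Saa2 (60.1 ± 11 TPM) and Orm2 (50.2 ± 7.19 TPM) came next, with overlap between neighbours. Lcn2 (17.1 ± 5.15 TPM) and Saa3 (15.4 ± 5.22 TPM) were lowest and could not be ordered. In males on the high fat diet, Saa1 (7412 ± 9618 TPM) and Saa2 (6796 ± 9677 TPM) had the highest means, but no neighbours in the order were separate from each other. The 10 genes together took 0.648% ± 0.0157 of all TPM in females on the normal diet and 0.865% ± 0.217 on the high fat diet. In males the share was 1.28% ± 0.628 on the normal diet and 3.14% ± 3.35 on the high fat diet, with single libraries from 0.682% to 7.78%.

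**Figure D1:**
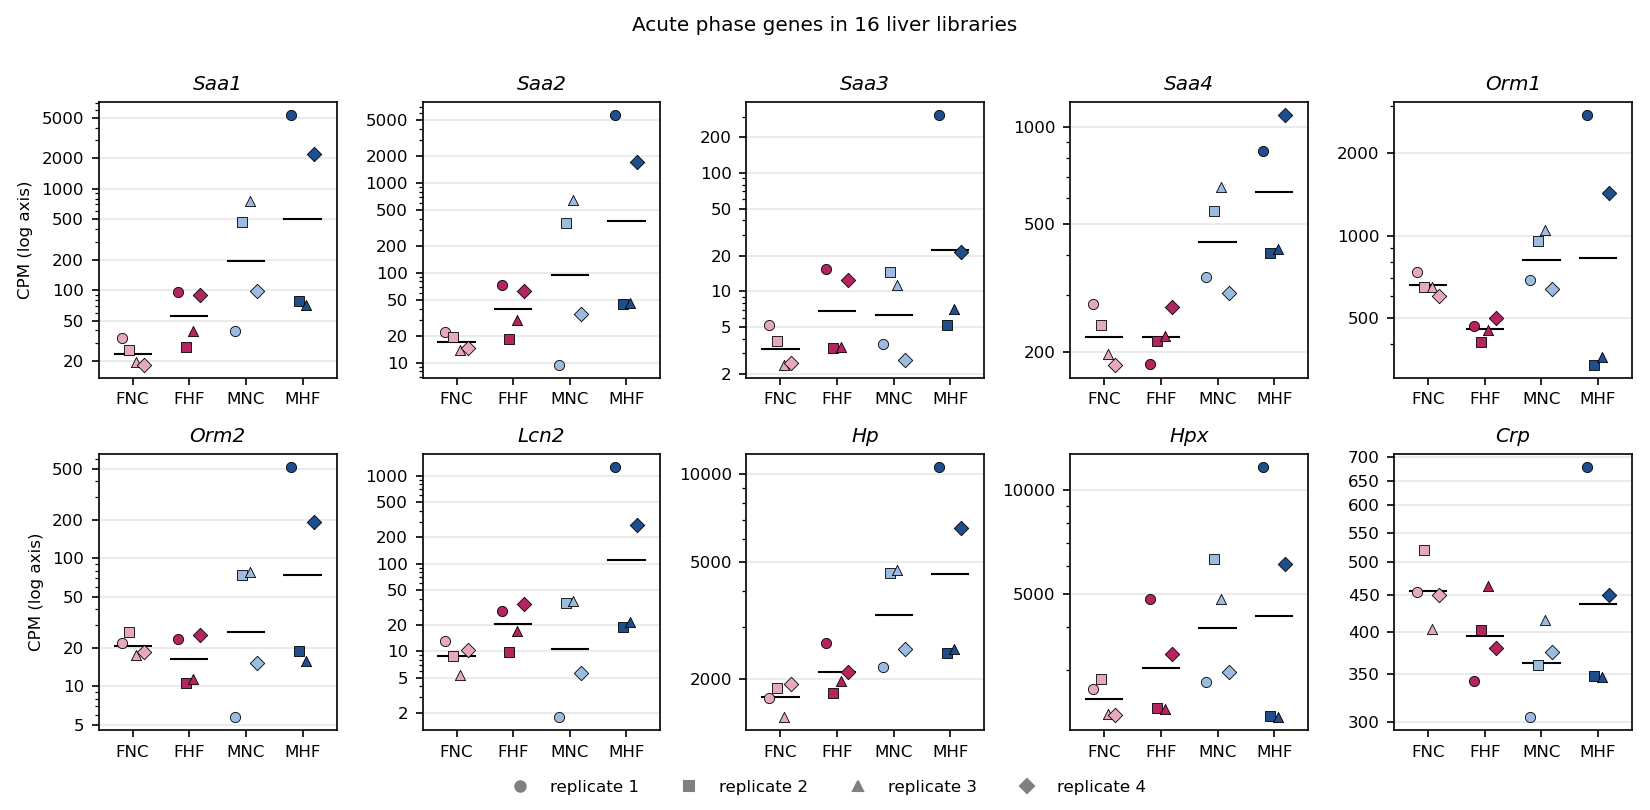
CPM (log axis, with its own range for each gene) of the 10 genes in every library, by group: FNC and FHF are females and MNC and MHF males on normal chow and high fat diet, symbols give the replicate number and bars the geometric mean. In males on the high fat diet replicates 1 and 4 lay above replicates 2 and 3 for all 10 genes, as for Saa1 at 5386 and 2197 against 77.2 and 71.6 CPM.

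Saa1 and Saa2 encode the inducible forms of serum amyloid A. Saa1 was at 34, 25.6, 19.5 and 18.1 CPM in female normal diet replicates 1 to 4 and at 95.2, 27.6, 39.9 and 89.2 CPM in female high fat diet replicates 1 to 4. In males it was at 39.9, 469, 763 and 97.4 CPM on the normal diet and at 5386, 77.2, 71.6 and 2197 CPM on the high fat diet. The male diet groups overlapped, since 2 high fat diet libraries stood above all normal diet libraries and the other two lay among them. The log2 fold change with diet was 1.37 ± 1.21 (SE) in females (edgeR quasi-likelihood test, adjusted p = 0.502) and 2.50 ± 1.24 in males (adjusted p = 0.216). All groups share the estimate of spread in this fit. For Saa1 the SD of log2 CPM was 0.41 (normal diet) and 0.88 (high fat diet) in females, and 1.98 and 3.24 in males. The SE in females thus also carries the wider spread among males. Over the 17 alternatives the adjusted p in females ran from 0.0861 to 0.652.

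Saa2 ran with Saa1: 21.8, 19.5, 13.8 and 14.4 CPM in females on the normal diet and 72.5, 18.2, 30.2 and 62.9 CPM on the high fat diet. In males it was at 9.35, 357, 650 and 35.2 CPM on the normal diet and 5728, 45.2, 45.8 and 1699 CPM on the high fat diet. Its lowest of all 16 libraries was male normal diet replicate 1. The diet log2 fold change was 1.40 ± 1.41 in females (edgeR adjusted p = 0.564) and 2.84 ± 1.46 in males (adjusted p = 0.231). Without male high fat diet replicate 1 the male values were 1.17 for Saa1 and 1.16 for Saa2. With the counts of both genes summed the values were 1.39 ± 1.28 and 2.66 ± 1.32 (adjusted p = 0.525 and 0.217).

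Saa3, a serum amyloid A that macrophages and fat cells also make, was low in most libraries. It was at 2.38 to 5.23 CPM in females on the normal diet, and at 15.6, 3.34, 3.4 and 12.6 CPM in females on the high fat diet. Males had 3.62, 14.7, 11.4 and 2.63 CPM on the normal diet and 311, 5.26, 7.08 and 21.4 CPM on the high fat diet, so 1 library carried most of that group's counts. The diet change in males, 3.41 ± 1.22 on the log2 scale, did not pass (edgeR adjusted p = 0.0903, DESeq2 adjusted p = 0.0126), and it was 0.45 without male high fat diet replicate 1. In females it was 1.34 ± 1.22 (edgeR adjusted p = 0.52).

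Saa4, the serum amyloid A that is made at a steady level, separated by sex. Females had 283, 243, 197 and 182 CPM on the normal diet and 184, 217, 224 and 277 CPM on the high fat diet. Males had 343, 547, 650 and 306 CPM on the normal diet and 843, 407, 419 and 1092 CPM on the high fat diet. Every male library lay above every female library of the same diet, and the high male libraries were the same ones as for Saa1. The diet log2 fold change was -0.00 ± 0.31 in females (edgeR adjusted p = 0.997) and 0.58 ± 0.31 in males (adjusted p = 0.238), or 0.27 without high fat diet replicate 4.

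Orm1 and Orm2 encode orosomucoid, a plasma glycoprotein that carries basic drugs. Orm1 was at 737, 647, 646 and 601 CPM in females on the normal diet and at 466, 405, 449 and 497 CPM on the high fat diet, so the female groups did not overlap. Its log2 fold change of -0.53 ± 0.52 did not pass in the fit to all 16 libraries (edgeR adjusted p = 0.546), where all groups share the estimate of spread. With only the 8 female libraries fitted it passed (adjusted p = 0.0143). In males Orm1 was at 686, 958, 1051 and 635 CPM on the normal diet and at 2775, 334, 359 and 1427 CPM on the high fat diet, with high fat diet libraries both above and below all normal diet libraries. The log2 fold change in males was 0.56 ± 0.52 (edgeR adjusted p = 0.528) and turned to -0.25 without high fat diet replicate 1.

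Orm2 was at 21.7, 26.7, 17.6 and 18.6 CPM in females on the normal diet and 23.3, 10.7, 11.5 and 25.2 CPM on the high fat diet. Males had 5.72, 73.7, 78.2 and 15.2 CPM on the normal diet and 519, 18.8, 15.7 and 193 CPM on the high fat diet. Its range among males was thus far wider than that of Orm1, although the transcripts are close copies. The diet log2 fold change was -0.26 ± 1.02 in females (edgeR adjusted p = 0.9) and 2.11 ± 1.03 in males (adjusted p = 0.208), or 0.79 without high fat diet replicate 1. The summed counts of Orm1, Orm2 and Orm3 gave -0.53 ± 0.55 and 0.69 ± 0.55 (adjusted p = 0.574 and 0.453).

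Lcn2 encodes a protein that binds bacterial siderophores and so withholds iron. It was at 13.1, 8.89, 5.38 and 10.3 CPM in females on the normal diet and 29.2, 9.82, 17.1 and 34.7 CPM on the high fat diet. Males had 1.77, 35.3, 37.9 and 5.66 CPM on the normal diet and 1262, 19.2, 21.6 and 273 CPM on the high fat diet. The fold change with diet in males was the largest among the 10 genes, 4.29 ± 1.32 on the log2 scale (95% interval 1.43 to 7.16, edgeR adjusted p = 0.0549), and high fat diet replicates 2 and 3 lay between the normal diet libraries. It was 2.36 without high fat diet replicate 1 (adjusted p = 0.169), and over the 17 alternatives it ran from 2.36 to 4.78 with adjusted p from 0.00152 to 0.254. The 4 alternatives that called it were DESeq2 (0.00152) and edgeR with replicates 2 and 3 averaged (0.0374), without replicate 2 (0.0374) or without replicate 3 (0.0384). The female change was 1.27 ± 1.21 (edgeR adjusted p = 0.541). Neutrophils also make Lcn2, and their 11 markers summed to 5.98, 2.89, 2.03 and 2.88 CPM in male high fat diet replicates 1 to 4 and to at most 6.31 CPM in any library. The sum of 6.31 CPM was in male normal diet replicate 2. Of these markers Ly6g was at 0 in 14 of 16 libraries. S100a9 (0.0824 to 2.49 CPM) and Retnlg (0.0371 to 0.577 CPM) were above 0 in all 16. The part of neutrophils in the Lcn2 results was not tested.

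Haptoglobin and hemopexin bind free hemoglobin and free heme. Hp was at 1714, 1858, 1472 and 1920 CPM in females on the normal diet and 2649, 1779, 1956 and 2103 CPM on the high fat diet. Males had 2190, 4605, 4698 and 2518 CPM on the normal diet and 10593, 2446, 2531 and 6562 CPM on the high fat diet. Diet changes were 0.29 ± 0.40 in females (edgeR adjusted p = 0.687) and 0.66 ± 0.40 in males (adjusted p = 0.308), or 0.12 without high fat diet replicate 1. Hpx was at 2219 to 2811 CPM in females on the normal diet and at 4806, 2317, 2304 and 3344 CPM on the high fat diet. In males it was at 2764, 6302, 4825 and 2950 CPM on the normal diet and at 11677, 2194, 2179 and 6106 CPM on the high fat diet. High fat diet replicates 2 and 3 were thus below every normal diet male, and the diet change of 0.40 ± 0.48 (adjusted p = 0.637) turned to -0.28 without replicate 1. In females it was 0.37 ± 0.48 (adjusted p = 0.662).

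Crp encodes a pentraxin that binds microbes and dead cells. It was the steadiest of the 10 across all libraries: 404 to 520 CPM in females on the normal diet, 342 to 463 CPM on the high fat diet, 304 to 416 CPM in males on the normal diet, and 679, 347, 346 and 450 CPM in males on the high fat diet. The groups overlapped in every comparison. The diet log2 fold change was -0.21 ± 0.18 in females (edgeR adjusted p = 0.493), with a change of sign on the TPM scale, and 0.32 ± 0.18 in males (adjusted p = 0.256), or 0.06 without high fat diet replicate 1.

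Counted over the 10 genes, none was called for diet in females, where 11.5% of all tested genes were called, and none for diet in males, where 11.4% were. At an unadjusted p under 0.05 the counts were 0 and 2, and DESeq2 called 0 and 2 (Lcn2 and Saa3 in males). The median log2 fold change was 0.33 in females, with 6 of 10 positive, and 1.39 in males, with 10 of 10 positive, against 0.00 and 0.01 over all tested genes. The 2 diet comparisons share no library. Diet groups did not overlap for 1 gene in females (Orm1, against 18.3% of all tested genes) and for none in males (18.5%). The test of whether the diet change differed between the sexes called 0 of 10, with 0 at an unadjusted p under 0.05 and 0 by DESeq2, where 0.677% of all tested genes were called. The median difference, females minus males, was -1.11. Its 95% interval for Lcn2, the gene with the largest difference, ran from -6.71 to 0.66, so the sexes are not shown to differ or to act alike. The scale moved the level of all genes: on log2(TPM + 1) with limma the median over all tested genes was 0.149 for diet in females and 0.051 in males. Calls over all genes, 848 higher and 852 lower in females and 891 and 793 in males with edgeR, were 2644 and 282 and 899 and 443 on that scale. The interaction calls were 39 and 61 with edgeR and 59 and 38 on that scale, where the median was 0.107. Without male high fat diet replicate 1 the difference changed sign for Saa1 (0.22), Saa2 (0.26), Saa3 (0.91), Hp (0.18) and Hpx (0.67).

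**Figure D2:**
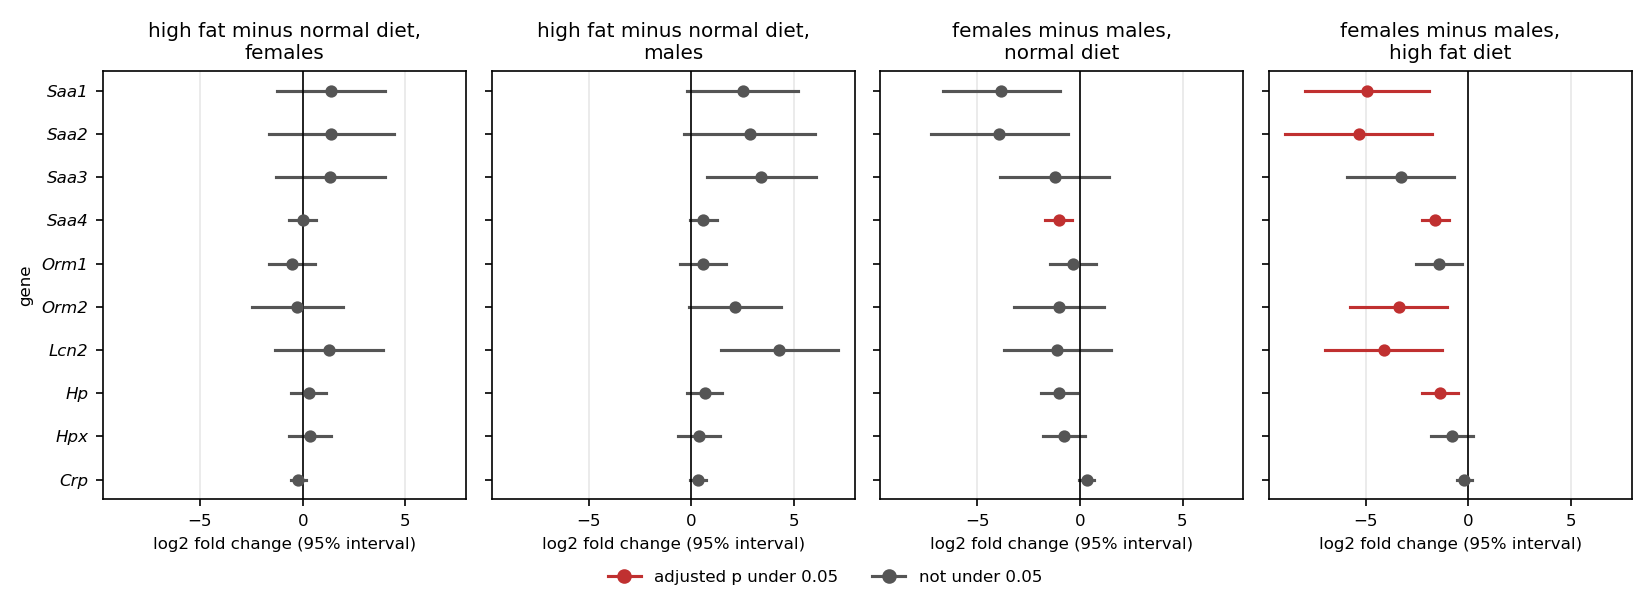
Log2 fold change and 95% interval of the 10 genes in 4 comparisons from the edgeR fit to 16 libraries, with the direction given over each panel and calls at adjusted p under 0.05 in red. No diet interval belongs to a called gene, while 1 gene (Saa4) is called between the sexes on the normal diet and 6 on the high fat diet, all lower in females.

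Females were compared with males on each diet. On the normal diet 1 of 10 genes was called, Saa4, which was lower in females by 1.03 ± 0.31 on the log2 scale, or 2.04-fold (edgeR adjusted p = 0.0353), where 15.7% of all tested genes were called. That call was lost in 10 of 16 alternatives, among them leaving out female normal diet replicate 2, 3 or 4 or male normal diet replicate 2 or 3 (adjusted p = 0.0739, 0.0806, 0.087, 0.0818 and 0.118). Groups did not overlap for Saa1, Saa4 and Hp, 3 of 10, against 22% of all tested genes. Saa1 (-3.82 ± 1.32, adjusted p = 0.069) and Saa2 (-3.92 ± 1.54, adjusted p = 0.105) had the largest differences and did not pass in edgeR, while DESeq2 called both (0.00481 and 0.0125). Saa1 also passed with male normal diet replicate 1 left out (0.0483). The summed counts of Saa1 and Saa2 gave -3.86 (adjusted p = 0.0799) and those of Orm1, Orm2 and Orm3 -0.36 (adjusted p = 0.7). The median over the 10 genes was -1.03, with 9 of 10 negative, Crp being the exception at 0.33 ± 0.18.

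On the high fat diet 6 of 10 genes were called, all lower in females, where 11.6% of all tested genes were called lower in females and 20.4% in either direction. Saa2 differed by -5.35 ± 1.64 on the log2 scale (edgeR adjusted p = 0.037), Saa1 by -4.94 ± 1.39 (adjusted p = 0.0254), Lcn2 by -4.12 ± 1.31 (adjusted p = 0.0426) and Orm2 by -3.40 ± 1.09 (adjusted p = 0.0447). Saa4 differed by -1.61 ± 0.32 (adjusted p = 0.00278) and Hp by -1.38 ± 0.41 (adjusted p = 0.0266). With the copies summed, Saa1 and Saa2 kept a call (-5.13, adjusted p = 0.0286), while Orm1, Orm2 and Orm3 did not pass (-1.58, adjusted p = 0.0614). Groups did not overlap for 1 of the 10, Saa4, against 22.7% of all tested genes. For Saa1, Saa2, Lcn2, Orm2 and Hp male replicates 1 and 4 were above all females, while replicates 2 and 3 lay among the females, as for Lcn2 at 19.2 and 21.6 CPM against 9.82 to 34.7 CPM.

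The Saa4 difference on the high fat diet passed in all 17 alternatives, with log2 values of -1.79 to -1.29 and adjusted p from 9.67e-07 to 0.0257. The other 5 calls were lost without male high fat diet replicate 1 or replicate 4, and without female high fat diet replicate 2, 3 or 4, leaving 1 gene, Saa4. Without male replicate 1 the differences were -2.05 for Orm2, -2.15 for Lcn2, -0.82 for Hp, -3.58 for Saa1 and -3.65 for Saa2. Without female replicate 1, Hp and Saa4 were called. With only the 8 high fat diet libraries fitted, with limma on log2(TPM + 1) or with no filter on low counts, Saa4 was again the 1 gene called. DESeq2 called 8 genes, adding Saa3 (adjusted p = 0.0118) and Orm1 (0.0258), and so did edgeR with male replicates 2 and 3 averaged. The median over the 10 genes was -2.46, with 10 of 10 negative, against -0.01 over all tested genes. Over all genes 1306 were called higher and 1716 lower in females with edgeR, and 2957 and 753 on log2(TPM + 1), where the median of all genes was 0.102. Crp, at -0.20 ± 0.18 (edgeR adjusted p = 0.455), and Hpx, at -0.79 ± 0.48 (adjusted p = 0.255), did not pass in any of the 17 alternatives.

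**Figure D3:**
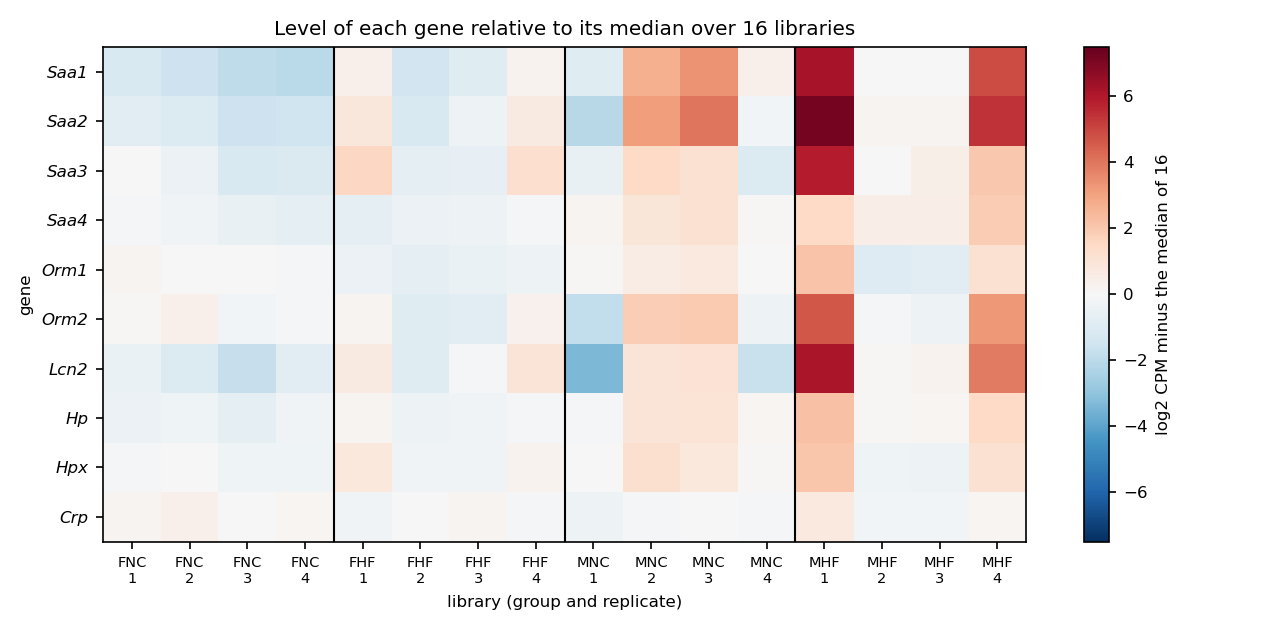
Level of each gene in each library relative to its own median over 16 libraries, as a difference of log2 CPM (red higher, blue lower), with libraries in columns by group and replicate. Male high fat diet replicates 1 and 4 are the reddest columns, up to 7.17 for Saa2, and male normal diet replicates 2 and 3 follow, up to 4.03.

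The same libraries were high for nearly all genes. Male high fat diet replicate 1 was the highest of 16 for 9 genes and replicate 4 for the other, Saa4. These 2 libraries were the highest of their group for all 10 genes. Among males on the normal diet, replicates 2 and 3 were the highest for 9 of 10, and among females on the high fat diet, replicates 1 and 4 for 8 of 10. Male high fat diet replicates 2 and 3 lay below male normal diet replicates 2 and 3 for all 10 genes.

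The spread within groups differed as widely as the means. Among males on the high fat diet, the SD of log2 CPM was 3.59 for Saa2, the third highest of all tested genes in that group, 3.24 for Saa1, 2.94 for Lcn2, 2.67 for Saa3 and 2.50 for Orm2. It was 1.51 for Orm1, 1.19 for Hpx, 1.05 for Hp, 0.72 for Saa4 and 0.46 for Crp, against a median of 0.23 over all tested genes. Males on the normal diet had 2.86 for Saa2, 2.13 for Lcn2, 1.98 for Saa1 and 1.83 for Orm2. In females on the high fat diet the highest was 1.18, for Saa3, and in females on the normal diet 0.54, for Lcn2. Orm1, Hp, Hpx and Crp were below the median of all genes (0.21) in females on the normal diet, at 0.12 to 0.17.

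**Figure D4:**
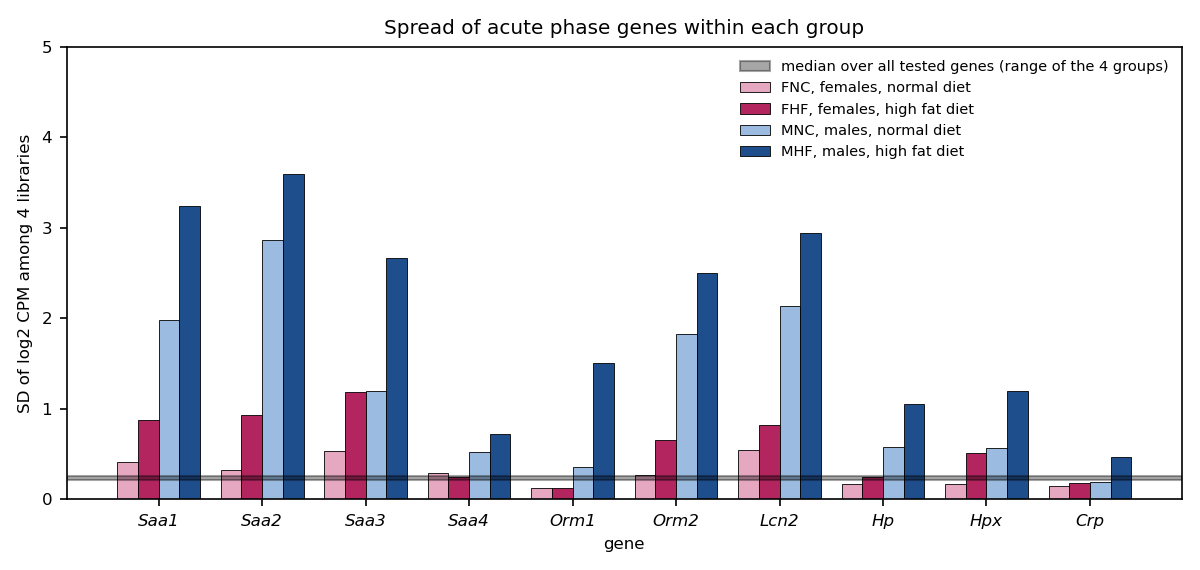
SD of log2 CPM among the 4 libraries of each group for the 10 genes, with the grey band giving the range over the groups (0.21 to 0.26) of the median SD of all tested genes. The bars for males on the high fat diet are the tallest for each of the 10 genes, from 0.46 for Crp to 3.59 for Saa2.

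Whether the genes varied together between libraries was computed for the 45 pairs, as correlations over 16 libraries of log2 CPM less the group mean. The points share libraries and library scaling, and male libraries span most of the range, so the values within each sex are given as well. Saa1 and Saa2 had Pearson's r = 0.991 and Spearman's rho = 0.979 (permutation p = 2e-05 and 8e-05, adjusted over the pairs 9e-04 and 0.00199). Within females r was 0.986 and within males 0.992 (n = 8 each, exact permutation p = 0.00347 in both, adjusted 0.104 and 0.0174), and without the 2 libraries farthest from the median r was 0.987. Near-identical transcripts can share reads, so part of this pair's likeness can come from the counting, which was not tested. For genes with no such copy, Lcn2 and Hp had r = 0.971 (females 0.732, males 0.987) and Hp and Hpx r = 0.961 (females 0.804, males 0.987).

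Of the 45 pairs, 39 passed an adjusted permutation p under 0.05 by Pearson's r and 35 by Spearman's rho, and all 39 were positive. Within males 36 passed by the exact permutation test and 30 had r of at least 0.9. Within females none passed, 36 of 45 were positive and 7 had r of at least 0.9. The share of passing pairs among other genes was not computed. Whether these counts are particular to the acute phase genes was thus not tested. Male high fat diet replicate 1 differed from replicates 2 and 3 with a chi-square statistic per gene of 304 and 307. For replicate 4 against replicates 2 and 3 it was 155 and 157. Crp was the loosest: with Saa1 it had r = 0.739 over all libraries (rho 0.526, adjusted p = 0.0379 and 0.152), 0.891 in males and -0.377 in females. That relation fell to r = 0.515 without male high fat diet replicates 1 and 3. Saa4 with Saa1 had r = 0.858 (rho 0.868, adjusted permutation p = 0.0299 and 0.0221), 0.924 in males and 0.358 in females.

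By the rule of highest Pearson's r over the 16 libraries among 10639 genes outside the 10, the nearest gene to each acute phase gene was named. Prg4 (lubricin) was closest to Saa1 and Saa2, at r = 0.952 and 0.965. C4bp, a complement regulator, was closest to Saa4 (0.946), Cpb2, a carboxypeptidase of fibrinolysis, to Orm1 (0.969), and Fgb, the fibrinogen beta chain, to Orm2 (0.937). Steap4, a metalloreductase, was closest to Lcn2 (0.950), Lrg1, a leucine-rich plasma glycoprotein, to Hp (0.973), Tmem176b to Hpx (0.980), Tmem176a to Saa3 (0.950) and Akt2, an insulin signalling kinase, to Crp (0.838). Without the 2 farthest libraries, which included male high fat diet replicate 1 each time, these fell to between 0.646 (Akt2 with Crp) and 0.963 (Tmem176b with Hpx).

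Signals and receptors upstream of these genes moved in both directions. Of 11 tested signals and receptors, 1 rose and 2 fell with the diet in females, and 2 rose and 1 fell in males. Their median log2 fold changes were -0.03 and 0.26, against 0.00 and 0.01 over all tested genes, of which 11.5% and 11.4% were called. Il1b, which encodes an inflammatory cytokine, was at 1.22, 1.87, 1.79 and 1.11 CPM in females on the normal diet and 4.32, 3.84, 3.37 and 4.79 CPM on the high fat diet, with no overlap (1.44 ± 0.21 on the log2 scale, edgeR adjusted p = 0.00035). In males it was at 0.648 to 0.97 CPM on the normal diet and 2.19, 2.72, 2.71 and 2.35 CPM on the high fat diet (1.74 ± 0.23, adjusted p = 0.000116). Both changes passed in every alternative run. Il1b was also higher in females than in males, by 1.00 ± 0.23 on the normal diet (adjusted p = 0.00674) and 0.71 ± 0.21 on the high fat diet (adjusted p = 0.0215), the latter not without female replicate 1 or 4 or male replicate 4 (0.0513, 0.0613 and 0.0537). The male high fat diet libraries highest in Saa1, replicates 1 and 4, had Il1b at 2.19 and 2.35 CPM, and replicates 2 and 3 at 2.72 and 2.71 CPM. These values rest on 53 to 80 counts per library, so their order is uncertain. Of the normal diet males highest in Saa1, replicate 2 was highest for Il1b (0.97 CPM) and replicate 3 lowest (0.648 CPM). The relation of Il1b to Saa1 was not tested. Il6 was at most 0.132 CPM in any library and, like Tnf, was too low to test.

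Il6ra, the receptor for IL-6, fell in females by 1.33 ± 0.19 on the log2 scale (edgeR adjusted p = 0.000266), from 97.7 to 115 CPM on the normal diet to 29 to 50.4 CPM on the high fat diet. In males it was at 84.4 to 103 CPM on the normal diet and at 45.2, 82.4, 81.4 and 52.7 CPM on the high fat diet (-0.48 ± 0.18, adjusted p = 0.0996), lowest in replicates 1 and 4. The difference of the diet change between the sexes, -0.85, did not pass (adjusted p = 0.157), except without male high fat diet replicate 1 (0.0491). Compared directly on the high fat diet, Il6ra was lower in females, at -0.62 on the log2 scale (edgeR adjusted p = 0.0237). That call was lost in 8 of 17 alternatives. Il1r1, the receptor for IL-1, fell in females by 1.28 ± 0.33 (adjusted p = 0.0236), while in males on the high fat diet it was at 147, 50.8, 48.7 and 126 CPM, highest in the libraries that were highest for Saa1 (0.21 ± 0.32, adjusted p = 0.732). On the high fat diet Il1r1 was lower in females by 1.85 ± 0.34 (adjusted p = 0.00203) in all 17 alternatives. Tnfrsf1a, a receptor for TNF, rose in males by 0.57 ± 0.15 (edgeR adjusted p = 0.017). That call was lost without high fat diet replicate 4 or normal diet replicate 3 or 4 (0.0562, 0.0527 and 0.0549). It was also lost with only the male libraries fitted (0.0705), and with limma on log2(TPM + 1) and no filter (0.075). Exons of Il1b, Il6ra, Cebpb, Cebpd, Stat3 and Ahsg overlap genes on the other strand in GENCODE M21, and the use of strand in counting is not given in the sources used here.

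**Figure D5:**
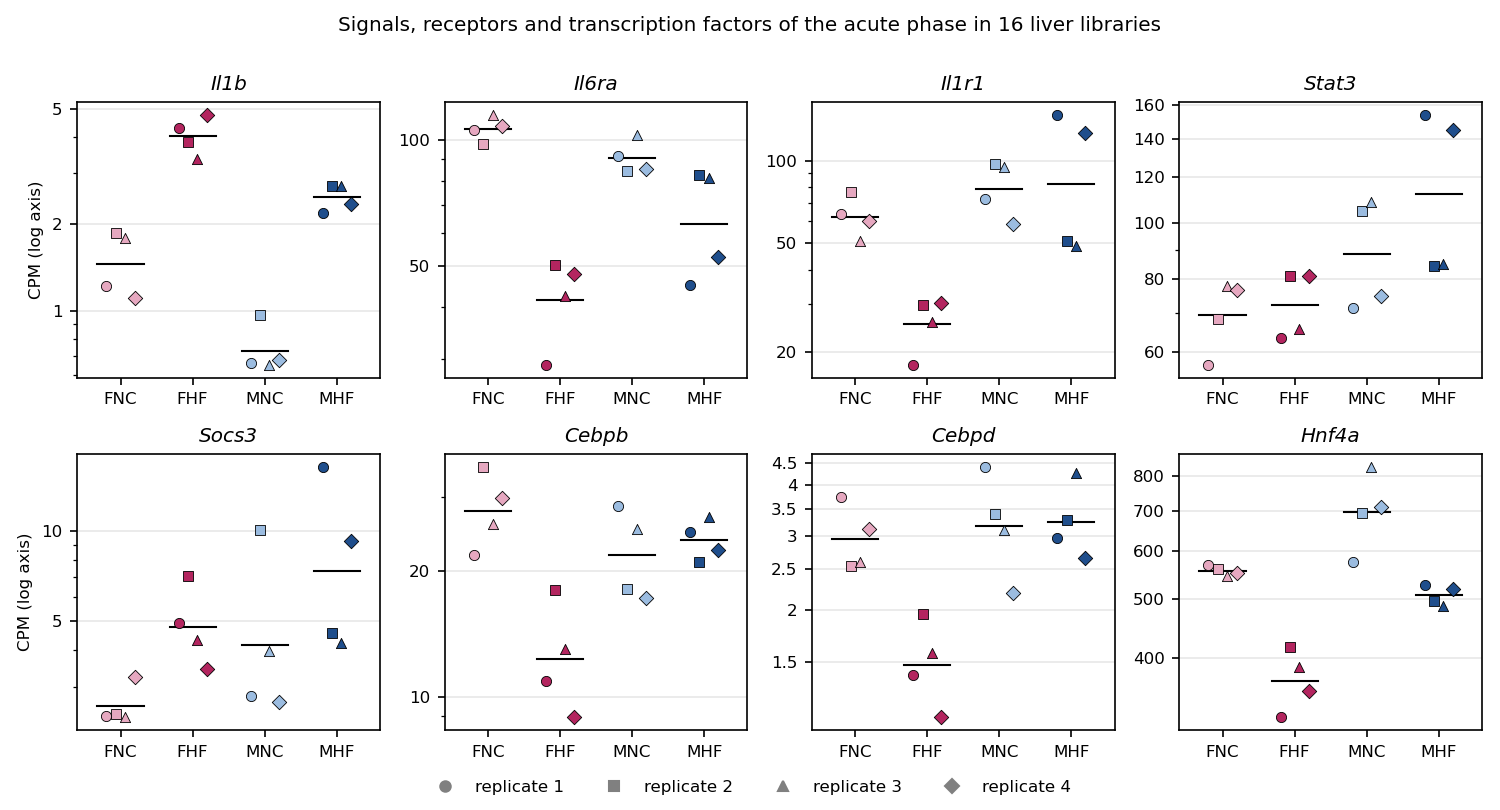
CPM (log axis, with its own range for each gene) of 8 signals, receptors and transcription factors by group and replicate, with bars at the geometric mean. Il6ra, Il1r1, Cebpb, Cebpd and Hnf4a were lower in every female high fat diet library than in every female normal diet library, and Stat3 and Il1r1 were highest in male high fat diet replicates 1 and 4.

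Of 13 signal transducers and transcription factors, 2 rose and 4 fell with the diet in females, and none rose and 2 fell in males, with medians of 0.09 and 0.02, beside the same 11.5% and 11.4% of all genes. Cebpb and Cebpd, which encode C/EBP factors, fell in females by 1.15 ± 0.21 (edgeR adjusted p = 0.00218) and 0.99 ± 0.24 (adjusted p = 0.0128) on the log2 scale. In males their log2 fold changes were 0.10 ± 0.20 and 0.02 ± 0.23 (adjusted p = 0.808 and 0.972). The 2 genes called higher in females were Cebpa, a further C/EBP gene, and Nfkb1. Mean Cebpa was 188 CPM in females on the normal diet and 239 CPM on the high fat diet. Nfkb1 was at 16.8 and 23.7 CPM. Hnf4a, a factor that maintains hepatocyte identity, fell in both sexes, by 0.60 ± 0.12 in females (adjusted p = 0.00331) and 0.47 ± 0.11 in males (adjusted p = 0.0139). These 2 calls were lost on the TPM scale, with adjusted p from 0.0501 to 0.11 and from 0.0637 to 0.145, and the male one also without normal diet replicate 3 (0.0577). Nfkbia, the inhibitor of NF-kB, fell by 0.54 ± 0.12 in females (adjusted p = 0.00873) and 0.59 ± 0.12 in males (adjusted p = 0.00506), the latter in all 17 alternatives. Between the sexes on the normal diet, Rela, an NF-kB subunit, was lower in females by 0.36 ± 0.10 (adjusted p = 0.0163), a call lost without female replicate 1 or male replicate 3 (0.0541 and 0.0528). On the high fat diet Cebpb (-0.90 ± 0.21, adjusted p = 0.00631) and Cebpd (-1.13 ± 0.24, adjusted p = 0.00346) were lower in females in all 17 alternatives.

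Stat3 and its target Socs3, an inhibitor of the same pathway, did not pass for diet. In males on the high fat diet Stat3 was at 154, 84.3, 85 and 145 CPM and Socs3 at 16.4, 4.58, 4.23 and 9.25 CPM, both highest in replicates 1 and 4. The diet log2 fold change of Stat3 was 0.06 ± 0.20 in females and 0.38 ± 0.20 in males (edgeR adjusted p = 0.886 and 0.23), and that of Socs3 was 0.91 ± 0.48 and 0.80 ± 0.46 (adjusted p = 0.235 and 0.278). Socs3 passed in females with only the female libraries fitted (0.0241) and in males without normal diet replicate 2 (0.0366). On the high fat diet Stat3 was lower in females by 0.69 ± 0.20 (adjusted p = 0.023), a call lost without male replicate 1 or 4 (0.0868 and 0.0862) and without female replicate 1 or 3 (0.0719 and 0.0615).

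Among 19 other genes that rise in the acute phase, none was called for diet in females, with 1 at an unadjusted p under 0.05, and 2 rose in males, Steap4 and Orm3, where 11.5% and 11.4% of all genes were called. The medians were 0.04 and 0.49. Steap4 was at 90.9, 206, 246 and 108 CPM in normal diet males and 1113, 221, 219 and 709 CPM on the high fat diet (1.80 ± 0.48, edgeR adjusted p = 0.0286). Orm3, another orosomucoid gene, was at 0.371, 0.628, 2.55 and 0.731 CPM and at 11.3, 2.95, 2.16 and 7.39 CPM (2.51 ± 0.68, adjusted p = 0.0292). Each of these calls was lost in 9 of 17 alternatives, including without high fat diet replicate 1 or 4 and normal diet replicate 1 or 4 (adjusted p = 0.0647 to 0.0795), and for Orm3 also normal diet replicate 2. Serpina3n, a protease inhibitor, was at 2554, 507, 510 and 1268 CPM in high fat diet males and 304, 601, 671 and 406 CPM on the normal diet (1.29 ± 0.43, adjusted p = 0.0671). It passed without high fat diet replicate 2 or 3 (0.0263 and 0.027), with these replicates averaged (0.0267) and with DESeq2 (0.0332). The log2 fold change of Lrg1 was 0.72 ± 0.46 in males and 0.13 ± 0.46 in females (adjusted p = 0.343 and 0.891).

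On the high fat diet 4 of these 19 genes were lower in females, where 11.6% of all tested genes were: Steap4 (-1.91 ± 0.48, edgeR adjusted p = 0.0145), Lrg1 (-1.79 ± 0.47, adjusted p = 0.0179), Serpina3n (-1.54 ± 0.43, adjusted p = 0.0221) and Fga, the fibrinogen alpha chain (-1.08 ± 0.36, adjusted p = 0.0485). Lrg1 and Serpina3n were not called without male replicate 1 or 4 or without female replicate 4, nor Serpina3n without female replicate 1 (adjusted p = 0.0524 to 0.0621). For Fga the groups overlapped, at 3839 to 4654 CPM in females and 4148 to 16948 CPM in males. Its values under the alternatives are not given here. On the normal diet 2 of 19 were called, against 15.7% of all tested genes, both higher in females: Orm3 (2.27 ± 0.68, adjusted p = 0.0359) and Il1rn, which encodes the antagonist of IL-1 (1.75 ± 0.49, adjusted p = 0.0273). Leaving out any one library other than male normal diet replicate 3 ended the Orm3 call (0.0568 to 0.0965). The Il1rn call ended without female replicate 2, 3 or 4 or male replicate 3 or 4 (0.0551 to 0.0806). Orm2 was at -1.03 ± 1.01 on the normal diet and was not called (edgeR adjusted p = 0.532, 95% interval -3.23 to 1.17). An opposite sex difference of Orm2 and Orm3 is thus not shown, and the split of reads between these copies is uncertain.

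Of 8 plasma proteins that fall in the acute phase, none was called for diet in females, with 2 at an unadjusted p under 0.05, and Alb was the 1 called in males (11.4% of all genes), with medians of -0.07 and -0.16. Alb, the albumin gene, was at 68332, 72841, 68167 and 65355 CPM in normal diet males and at 37643, 58217, 58556 and 39443 CPM on the high fat diet, lowest in replicates 1 and 4. It fell by 0.50 ± 0.14 on the log2 scale (edgeR adjusted p = 0.0303), a call lost without high fat diet replicate 1 or 4 or any one normal diet replicate (0.0524 to 0.0956). On the high fat diet Alb (0.57 ± 0.14, adjusted p = 0.0104), Ahsg (0.45 ± 0.13, adjusted p = 0.018) and Serpina6, which carries corticosteroids in plasma (1.72 ± 0.29, adjusted p = 0.000843), were higher in females. Ahsg (0.39 ± 0.13, adjusted p = 0.045) and Serpina6 (1.06 ± 0.28, adjusted p = 0.0189) were also higher in females on the normal diet. Those calls were lost in 10 and 6 of 16 alternatives, among them without female replicate 1 or 2 or male replicate 3 or 4, and for Ahsg also female replicate 4 or male replicate 1.

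Of 10 tested receptors and clearance genes, 2 rose with the diet in females and 1 in males, with medians of 0.33 and 0.23, where 11.5% and 11.4% of all genes were called. Tlr2, a receptor for bacterial lipoproteins and serum amyloid A, rose from 2.05 to 3.07 CPM to 5.33 to 9.52 CPM in females (1.40 ± 0.35, edgeR adjusted p = 0.0159). Fpr2, a receptor on myeloid cells for serum amyloid A, was at 0.366 to 1.38 CPM and 1.38 to 3.75 CPM (1.82 ± 0.48, adjusted p = 0.0201). The call of Tlr2 was lost without female normal diet replicate 4 (0.0537), and that of Fpr2 without high fat diet replicate 1 or normal diet replicate 3 or 4 (0.0532, 0.056 and 0.0647). Scarb1, the receptor for high density lipoprotein, rose in males by 0.43 ± 0.12 (edgeR adjusted p = 0.0258). That call was lost without high fat diet replicate 2 or 3 or normal diet replicate 1, 3 or 4 (0.0543 to 0.0862). It was also lost with high fat diet replicates 2 and 3 averaged (0.078) and with only the male libraries fitted (0.0513). Hmox1, which breaks down heme, was lower in females on the normal diet by 1.02 ± 0.30 (adjusted p = 0.0339), a call lost in 10 of 16 alternatives, including without female replicate 1, 3 or 4 or male replicate 2 or 3 (0.0627 to 0.105). Lrp2, an endocytic receptor that takes up lipocalin 2, was at 1.25 to 3.03 CPM in males and at most 0.177 CPM in females on the normal diet (edgeR adjusted p = 9.40e-05). Its levels on the high fat diet were 0.653 to 2.21 CPM in males and at most 0.187 CPM in females (adjusted p = 0.000435). Fpr2 was higher in females on that diet, at 1.38 to 3.75 CPM against 0.275 to 1.49 CPM in males (2.04 ± 0.49, adjusted p = 0.00784), in all 17 alternatives. Its exons overlap those of Fpr3 on the same strand in GENCODE M21, so reads there could belong to either gene. No gene of the pathway lists was called for a difference of the diet change between the sexes.

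Markers of other cells moved beside some of these genes. The 8 Kupffer cell and macrophage markers summed to 270 to 391 CPM in females on the normal diet, 448 to 652 CPM in females on the high fat diet, 252 to 393 CPM in normal diet males and 224 to 447 CPM in high fat diet males. Over all 14781 tested genes, 848 in females and 891 in males were called higher with diet, and 1306 were higher in females on the high fat diet. In either direction 11.5%, 11.4% and 20.4% were called in these comparisons. In females 3 of the 8 macrophage markers were called higher on the high fat diet (Cd5l, Csf1r and Cd68) and in males 1 of 8 (Cd68). Females had higher levels than males on the high fat diet in 5 of 8 (Clec4f, Vsig4, Cd5l, Timd4 and Csf1r), and on the normal diet none was called, with 1 at an unadjusted p under 0.05. These cells make Il1b, Tlr2, Fpr2 and Saa3, and the part of the markers in those results was not tested. Neutrophil markers summed to 0.481 to 0.95 CPM and 1.27 to 3.78 CPM in females on the normal and high fat diets, and to 0.865 to 6.31 CPM and 2.03 to 5.98 CPM in males. Of these 11 markers 2 could be tested, and S100a8 was called higher with diet in females (2.51 ± 0.74, edgeR adjusted p = 0.0343). S100a8 was under 1 CPM in 13 of 16 libraries and at most 1.64 CPM, so this call rests on low values. The pancreatic acinar markers summed to 12.7 to 53 CPM in high fat diet males and to at most 15.3 CPM elsewhere. Cpa1, Amy2a2 and Pnlip were at 0 in 13 of 16 libraries, while Cela1 was at 4.54 to 16.4 CPM. Of the 2 acinar markers that could be tested, Cela2a was called higher with diet in males. It was also called lower in females than in males on the high fat diet. The 8 fat cell markers summed to 3124 to 4086 CPM and 1550 to 2633 CPM in females on the normal and high fat diets, and to 3947 to 5845 CPM and 2727 to 4730 CPM in males, with most of each sum from Car3 and Pck1, which hepatocytes also express. Of the 5 that could be tested, Cfd and Cidec were called higher and Pck1 lower with diet in males, Pck1 lower with diet in females, and all 3 lower in females than in males on the high fat diet. Lep and Plin1 were under 1 CPM in all 16 libraries, Lep at 0 in 10, and Cfd reached at most 10.2 CPM. The part of these markers in the results for Saa3, Hp and Lcn2, which fat cells also express, was not tested.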

How the data were processed

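Poly(A) RNA libraries were made from whole-liver RNA with a NEBNext Ultra kit and sequenced on a NovaSeq instrument, per the labels' protocols. The authors deposited expected counts and TPM per gene. STAR, RSEM and the GRCm39 build are named, without versions or roles, per the submitters' processing notes, and whether counting used the strand is not given in the sources used here. Of the deposited expected counts, 4.89% were not whole. TPM as deposited divides each gene by its length.

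Genes were matched by Ensembl identifier to a supplied symbol table (51487 of 78317 genes, 98.97% of counts). Expected counts were rounded, filtered by filterByExpr and scaled by TMM. The quasi-likelihood test of edgeR 4.0.16 (R 4.3.3) was fitted to all 16 libraries with 1 mean per group. Of 14781 genes, those with a Benjamini-Hochberg adjusted p under 0.05 over all tested genes were called. All tests were two-sided. SE is the log2 fold change over the square root of F. On simulated counts for diet in females with 14781 genes, 68.2% of 2-fold and 94.6% of 4-fold changes were recovered, and 5.29% of calls were false. These rates do not give the recovery for the acute phase genes, several of which varied far more than most genes. In males on the high fat diet the SD of log2 CPM was 3.59 for Saa2, against a median of 0.23 over all tested genes. The 19.6-fold change of Lcn2 with diet in males was not called (edgeR adjusted p = 0.0549).

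Correlations within groups used 100000 permutations, or the 576 exact ones within a sex, taking log2 CPM at a prior count of 2. Alternatives were DESeq2 1.42.0, other size factors, no filter, limma 3.58.1 on log2(TPM + 1) and log2(TPM + 0.1), fewer groups, a replicate block, each library left out, male high fat diet replicates 2 and 3 averaged, and summed copies. Named besides the 10 genes are, per pathway list and comparison, the 2 called genes with the smallest p, Stat3, Socs3, Il6ra, Serpina3n and Lrg1, and, of the 2 genes most like each acute phase gene, the nearest. Il6, Tnf, Cebpd and Nfkbia in further comparisons, Cebpa, Nfkb1, Fga, and marker genes were named after their values were seen. One gene of the pathway lists is not reported here. The genes and lists were chosen with earlier results of these data known. Promoter sequences came from RefSeq (GRCm38.p6) and transcripts and overlaps from GENCODE M21, and no coordinates of another build were mixed with them.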

Additional observations from a re-analysis of the deposited data

Results flagged for a closer look

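In groups of 4, a library was singled out when its gap to the nearest other library exceeded Dixon's 95% critical share of the group's range. Of 136 such tests 5 did so, and chance gives about 1 in 20. Saa3 stood apart in male high fat diet replicate 1, at 311 CPM against 21.4 CPM in the next. Il1b was highest in male normal diet replicate 2 at 0.97 CPM, against 0.677 CPM. Il1rn was lowest in female normal diet replicate 1 at 5.82 CPM, against 12.3 CPM. Orm3 was highest in male normal diet replicate 3 at 2.55 CPM, against 0.731 CPM. Socs3 was highest in female normal diet replicate 4 at 3.24 CPM, against 2.45 CPM. Saa1, Saa2 and Lcn2 did not meet this criterion in males on the high fat diet, because 2 libraries of the 4 were high.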

How the results depend on the processing

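Over 920 recomputed log2 fold changes of the 10 genes, 806 kept direction and side of the threshold, 70 lost a call, 19 gained one and 25 changed sign. Of the 10 genes, those called for diet in females went from 0 to 1 with only the groups compared. For diet in males they went from 0 to 2 with DESeq2 and 1 with the alike male libraries (high fat diet replicates 2 and 3) averaged, and were 0 to 1 with single libraries left out. For sex on the normal diet they went from 1 to 3 with DESeq2 or only the groups compared, and to 0 on either TPM scale, with no filter and with the replicate block, with 0 to 2 when 1 library was left out. For sex on the high fat diet they went from 6 to 1 on either TPM scale, with no filter, with only the groups compared and with the replicate block, with 1 to 8 when 1 library was left out. Over all genes, calls for diet in females rose from 1700 to 2763 (TPM + 0.1) and 2926 (TPM + 1), with 975 to 1656 when 1 library was left out. Calls for diet in males fell from 1684 to 770 (TPM + 1, no filter), with 1118 to 1931 for left-out libraries. Interaction calls went from 100 to 341 (DESeq2), 60 (replicates averaged) and 40 (TPM + 1, no filter), with 57 to 180 for left-out libraries. Calls by sex on the normal diet fell from 2322 to 1033 (TPM + 1, no filter), with 1341 to 2504 for left-out libraries, and on the high fat diet from 3022 to 1979 (only the groups compared), with 1982 to 3049. Same-numbered libraries are not labelled as paired and were not paired in the main fit. Of 24 such pairs 4 correlated over 0.1 (-0.159 to 0.18), all between replicates numbered 1, and 5 libraries correlated best with their own number. The median was 0.044, against -0.018 for other numbers, so these values cannot settle whether libraries were paired. With the replicate block more genes were called, as for sex on the high fat diet (3022 to 3445). With the replicate block the sign of the Hpx interaction turned to 0.15. It was 0.36 on the TPM scales and -0.29 to 0.67 over left-out libraries. Crp changed sign on the TPM scales, where the median of all genes also moved (to 0.149 and 0.222 for diet in females and 0.102 and 0.152 for sex on the high fat diet), for diet in females (0.03) and for sex on the high fat diet (0.02, and -0.31 to 0.09 over left-out libraries, the latter without male replicate 1). Without male high fat diet replicate 1 the sign changed for diet in males for Orm1 (-0.25 to 0.87 over left-out libraries) and Hpx (-0.28 to 0.66), and for the interaction for Saa1 (-1.88 to 0.22), Saa2 (-2.41 to 0.26), Saa3 (-2.54 to 0.91) and Hp (-0.61 to 0.18). Lrg1 (-0.06 to 0.29, the former without female high fat diet replicate 1) and Stat3 (-0.01 to 0.12, the former without female normal diet replicate 1) changed sign for diet in females. The Socs3 interaction turned to -0.11 with replicates averaged and was -0.52 to 0.66 over left-out libraries. The cause was not tested. With 4 libraries a group, the spread between libraries and not the depth limits the precision for the 10 genes, whose lowest count in a library was 43.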
